A study of Mus musculus with 6 samples.

Results

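Ppp1r1a encodes inhibitor-1 of protein phosphatase 1, and it was examined here together with the genes of the related inhibitors and of the phosphatase's own catalytic subunits, in islets of mice that lack Sel1L in β cells. The set was named as 7 genes, the inhibitors Ppp1r1a, Ppp1r1b, Ppp1r1c and Ppp1r2 and the catalytic subunits Ppp1ca, Ppp1cb and Ppp1cc. A probe set counted as a member where the array annotation gives it 1 of these symbols and no other. This gave 7 probe sets of 41345 in the table, which represent 6 genes of 22180. Ppp1r1b has no such probe set, since the only one that carries its symbol also carries 1700003D09Rik. Ppp1r1a was selected on its difference between these same arrays, where it had the fourth largest fall among the 34 genes that fell past an adjusted p of 0.05, so its values below are a description and carry no test. The other members were named for what they encode, with earlier results of these data known.

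The study set islets of β cell-specific Sel1L-deficient mice (3 arrays) against islets of wildtype mice (3 arrays). All were C57BL/6J mice aged 5 weeks and labelled female. The deficient mice carried floxed Sel1L alleles and a Cre gene inserted at the Ins1 locus, which is active in β cells, and the mice labelled wildtype were Sel1L f/f littermates, so Cre with its altered Ins1 allele cannot be told apart from the loss of Sel1L. Islets were hand-picked and kept overnight in medium before RNA was taken, and the labels do not state whether an array holds 1 animal or a pool. The p-values below therefore compare these samples and may not speak for the variation between animals.

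Protein phosphatase 1 (PP1) removes phosphate from serine and threonine residues of many proteins. Its catalytic subunit is made from any of 3 genes and works in complexes with regulatory subunits that direct it to a place in the cell or block it. Inhibitor-1 blocks PP1 after protein kinase A (PKA), the kinase activated by cyclic AMP, has phosphorylated it, and the calcium-dependent phosphatase calcineurin reverses that step, so the protein links cyclic AMP and calcium signals to PP1. In β cells cyclic AMP is raised by the incretin hormones GLP-1 and GIP, and PPP1R1A has been studied in β-cell lines as a gene that acts in the GLP-1 amplification of insulin secretion.

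Values are log2 summaries made by the authors with RMA, in which 1 unit is a doubling, with array medians from 3.08 to 3.16. The table has no detection call, so values near or below these medians were not separated from background. Sel1l, the deleted gene, stood at 7.73, 7.65 and 7.68 on the Sel1L-deficient arrays and at 8.46, 8.56 and 8.76 on the wildtype arrays, so it went with the label on each array. Whether its probes lie in the deleted part was not analysed here. The sex label was not borne out on 1 array of each genotype, replicate 3, where Xist stood at 3.08 in the Sel1L-deficient and 2.93 in the wildtype array, against 9.93 to 10.4 on the other 4, and Y-linked transcripts were high.

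Ppp1r1a was lower in Sel1L-deficient islets on each array. It stood at 6.81, 6.48 and 7.08 on the Sel1L-deficient arrays and at 8.80, 8.27 and 8.71 on the wildtype arrays. The groups did not overlap, and the highest Sel1L-deficient value lay 1.19 below the lowest wildtype value, a gap wider than the spread within either genotype, which was 0.60 in Sel1L-deficient and 0.53 in wildtype arrays. The mean was 6.79 ± 0.30 in Sel1L-deficient and 8.60 ± 0.28 in wildtype islets (SD, n = 3 each), a log2 difference of -1.81 ± 0.19 (SE) with a 95% interval of -2.24 to -1.37, or 3.50-fold lower. Of the 2 arrays whose transcripts went against the sex label, the Sel1L-deficient one held the highest Ppp1r1a value of its genotype and the wildtype one the middle value. On the other 4 arrays alone the difference was -1.89 ± 0.22 (SE). Leaving out 1 array at a time gave -1.97 without wildtype replicate 2 to -1.65 without Sel1L-deficient replicate 2. The place past the threshold over all genes, which chose the gene, was kept in 2 of these 6 fits, those without Sel1L-deficient replicate 3 and without wildtype replicate 2. It was also lost on the 4 arrays alone and with every probe set tested on its own.

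**Figure D1:**
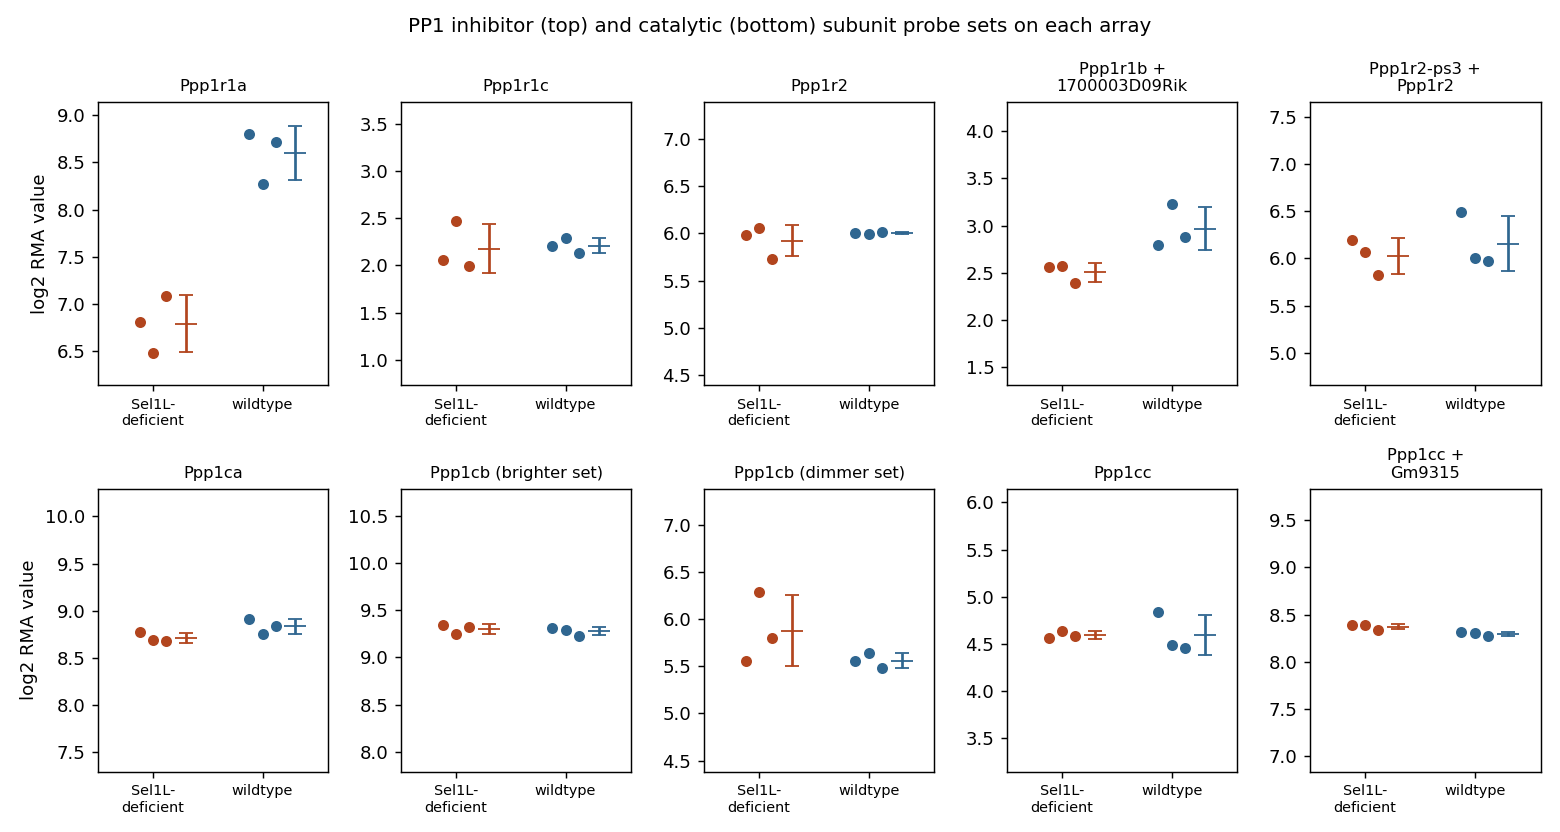
Log2 RMA values of the 10 probe sets that name a PP1 inhibitor gene (top row) or catalytic subunit gene (bottom row), with a dot for each array and the mean ± SD (n = 3) beside the dots; each panel spans the same number of log2 units. The Sel1L-deficient and wildtype arrays stand clearly apart for Ppp1r1a, with a gap of 1.19, and lie close together or overlap in the other panels; panels with 2 symbols are probe sets shared with another gene.

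The 2 other inhibitor genes with a probe set of their own did not pass the threshold. Ppp1r2 encodes inhibitor-2, which binds the catalytic subunit directly and is phosphorylated by glycogen synthase kinase 3. It stood at 5.99, 6.05 and 5.73 on the Sel1L-deficient arrays and at 6.01, 5.99 and 6.02 on the wildtype arrays. These values overlapped, with only Sel1L-deficient replicate 3 set apart, and the log2 difference was -0.08 ± 0.11 (SE) with a 95% interval of -0.34 to 0.18 (limma, Benjamini-Hochberg adjusted p = 0.879). Ppp1r1c, a smaller relative of inhibitor-1, stood at 2.06, 2.47 and 1.99 on the Sel1L-deficient arrays and at 2.20, 2.29 and 2.13 on the wildtype arrays. All 6 values lay below the array medians, so the difference of -0.03 ± 0.14 (SE, limma adjusted p = 0.969) compares levels that were not separated from background.

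Inhibitor genes were also touched by 2 probe sets that the annotation shares with another gene and that are therefore outside the set. The probe set of Ppp1r1b, which encodes DARPP-32, the dopamine- and cyclic AMP-regulated relative of inhibitor-1 known from the striatum, is shared with 1700003D09Rik. It stood at 2.56, 2.57 and 2.39 on the Sel1L-deficient arrays and at 2.79, 3.23 and 2.88 on the wildtype arrays. The groups did not overlap, the Sel1L-deficient values being lower, but only wildtype replicate 2 exceeded its array median. The difference was -0.46 ± 0.14 (SE), and with every probe set tested on its own it did not pass (limma adjusted p = 0.572). In that fit 3 of 41345 probe sets passed, or 0.00726%, and the genotypes did not overlap in 13.3%. The probe set shared by Ppp1r2 and the pseudogene Ppp1r2-ps3 overlapped between genotypes and differed by -0.13 ± 0.18 (SE), near the value of the probe set of Ppp1r2 alone.

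The 3 catalytic subunit genes differed little between genotypes. Ppp1ca, which encodes the alpha isoform, stood at 8.78, 8.69 and 8.68 on the Sel1L-deficient arrays and at 8.91, 8.75 and 8.84 on the wildtype arrays. The ranges overlapped only through Sel1L-deficient replicate 1 and wildtype replicate 2, and the log2 difference was -0.12 ± 0.10 (SE) with a 95% interval of -0.35 to 0.11 (limma adjusted p = 0.783). Ppp1cb, which encodes the beta isoform found in myosin phosphatase, stood at 9.35, 9.25 and 9.32 on the Sel1L-deficient arrays and at 9.31, 9.29 and 9.23 on the wildtype arrays. These values interleaved, and the difference of 0.03 ± 0.10 (SE) had a 95% interval of -0.20 to 0.25 (limma adjusted p = 0.964). Its dimmer probe set read 5.55, 6.29 and 5.79 on the Sel1L-deficient arrays and 5.56, 5.64 and 5.48 on the wildtype arrays. Here Sel1L-deficient replicate 2 stood alone above the rest, and the difference of 0.32 ± 0.19 (SE) did not pass in the fit of every probe set (limma adjusted p = 0.783). With the mean of both probe sets Ppp1cb differed by 0.17.

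Ppp1cc, which encodes the gamma isoform, stood at 4.56, 4.64 and 4.58 on the Sel1L-deficient arrays and at 4.84, 4.48 and 4.45 on the wildtype arrays. The Sel1L-deficient values lay inside the wildtype range, and the log2 difference was 0.0021 ± 0.13 (SE) with a 95% interval of -0.29 to 0.29 (limma adjusted p = 0.999). A brighter probe set shared by Ppp1cc and Gm9315 read 8.39, 8.39 and 8.34 on the Sel1L-deficient arrays and 8.31, 8.30 and 8.27 on the wildtype arrays. The Sel1L-deficient values were all higher, by 0.08 ± 0.09 (SE) on average (limma adjusted p = 0.899 in the fit of every probe set). The catalytic genes are close in sequence, and how far their probes take up each other's transcripts was not analysed here.

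Of the 5 members besides Ppp1r1a, 0 passed the threshold over all genes (limma), where 0.243% of the 22180 genes passed, 0.0902% higher and 0.153% lower. At an unadjusted p under 0.05 the count was also 0, with the smallest p at 0.267, against 9.48% of all genes. Limma with a trended and robust prior also called 0 of them. The genotypes overlapped in all 5, while they did not overlap in 15.1% of all genes, 7.22% higher and 7.84% lower. The 95% intervals of the 5 differences reached at most 0.36 from zero on the log2 scale, or 1.28-fold, which leaves out a difference of the size seen in Ppp1r1a on the deposited scale. The dim level of Ppp1r1c and the unmeasured share of compression by RMA limit what these intervals say about transcript amounts.

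**Figure D2:**
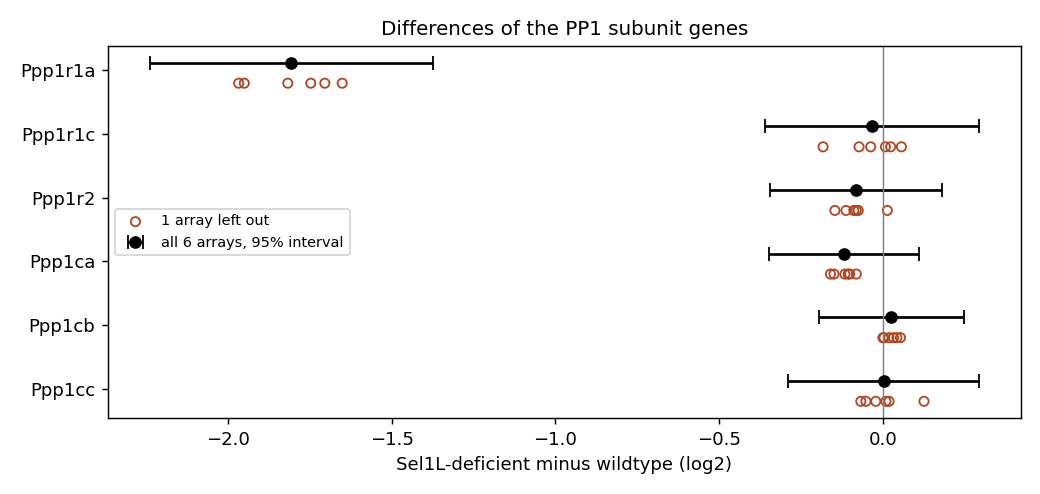
Sel1L-deficient minus wildtype log2 difference of each PP1 subunit gene, with the limma estimate and 95% interval from all 6 arrays (black) and the estimates with 1 array left out (open circles). Ppp1r1a lies at -1.81 and stays between -1.97 and -1.65 with an array left out, while the other 5 genes lie within 0.12 of zero in the fit of all 6 arrays and their intervals include it.

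PP1 acts through a large family of other partners, and 38 of these targeting and regulatory subunit genes were measured. In Sel1L-deficient islets 1 of them fell, 0 rose and 37 did not pass, beside 0.153% of all genes that fell. The median difference was 0.01 against 0.000441 over all genes. The one that fell was Phactr1, which encodes a protein that binds both PP1 and actin and forms a phosphatase complex with the catalytic subunit. Phactr1 stood at 7.11, 7.19 and 7.53 on the Sel1L-deficient arrays and at 8.15, 8.26 and 8.50 on the wildtype arrays. The groups did not overlap, and the log2 difference was -1.02 ± 0.15 (SE), or 2.03-fold lower (limma adjusted p = 0.0435). The difference lay between -1.15 and -0.93 with 1 array left out, and it passed without Sel1L-deficient replicate 3 (0.0491) and in 0 of the 5 other such fits. The limma adjusted p over all alternatives ranged over 0.00451 to 0.225.

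The next largest differences in this family were in glycogen-targeting subunits, which bring PP1 to glycogen particles. Ppp1r3c differed by 0.45 ± 0.20 and Ppp1r3b by 0.38 ± 0.14 (SE, limma adjusted p = 0.54 and 0.421), and both overlapped between genotypes. The Ppp1r3c values were 3.30, 3.71 and 2.83 on the Sel1L-deficient arrays and 2.82, 2.77 and 2.90 on the wildtype arrays, so Sel1L-deficient replicates 1 and 2 alone were high. Ppp1r13b and Phactr1 had the highest mean values of the family, and Ppp1r13b, which encodes the p53-binding protein ASPP1, differed by -0.03. The stress-induced subunit Ppp1r15a and its constitutive relative Ppp1r15b, which direct PP1 to the translation factor eIF2α, differed by 0.01 and -0.07, values looked up after the list had been read. In 5 of the 38 genes the genotypes did not overlap, or 13.2%, beside 15.1% of all genes.

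Upstream of inhibitor-1, none of the 32 measured cyclic AMP and PKA genes passed (limma, 0 rose and 0 fell), and the list median was 0.0064. An unadjusted p under 0.05 was seen in 5 of them, beside 9.48% of all genes. The PKA catalytic subunit gene Prkacb, among the highest of the list, stood at 8.65 ± 0.17 in Sel1L-deficient and 8.70 ± 0.09 in wildtype islets (SD, n = 3 each), a difference of -0.05. The GLP-1 receptor gene Glp1r stood at 11.4 ± 0.07 in Sel1L-deficient and 11.5 ± 0.07 in wildtype islets (SD, n = 3 each), a difference of -0.06, at a level near the top of the scale. The GIP receptor gene Gipr stood at 6.55, 6.47 and 6.86 on the Sel1L-deficient arrays and at 7.03, 7.18 and 7.15 on the wildtype arrays. It did not overlap between genotypes, with a difference of -0.50 ± 0.13 (SE, limma adjusted p = 0.26). Pde10a, a phosphodiesterase that breaks down cyclic AMP and cyclic GMP, differed by -0.62 ± 0.18 without overlap (limma adjusted p = 0.341). The adenylyl cyclase gene Adcy2 differed by 0.48 ± 0.20 (limma adjusted p = 0.5), with its wildtype mean below the array medians and its Sel1L-deficient mean just above them. Its Sel1L-deficient values were 2.88, 3.67 and 2.96, and without Sel1L-deficient replicate 2 the difference was 0.23.

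Calcineurin, which takes the activating phosphate off inhibitor-1, and the NFAT factors that it also acts on gave 0 of 11 genes past the threshold (limma), with a median of -0.03. Of these 11, 3 had an unadjusted p under 0.05, beside 9.48% of all genes. The catalytic subunit gene Ppp3ca stood at 7.92, 7.83 and 7.53 on the Sel1L-deficient arrays and at 7.54, 7.31 and 7.25 on the wildtype arrays. Sel1L-deficient replicate 3 overlapped the wildtype range, and the difference was 0.40 ± 0.14 (SE, limma adjusted p = 0.407). Ppp3cb, a second catalytic subunit gene, differed by 0.10, the transcription factor gene Nfatc1 by 0.46 ± 0.14 (limma adjusted p = 0.348) and Rcan1, which encodes a calcineurin inhibitor, by -0.25 ± 0.11 (limma adjusted p = 0.496). Nfatc1 was higher and Rcan1 lower on every Sel1L-deficient array than on any wildtype array.

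Kinases that phosphorylate DARPP-32 or inhibitor-2 gave 0 of 8 genes past the threshold and 0 at an unadjusted p under 0.05 (limma), with differences from -0.07 for the Cdk5 activator Cdk5r2 to 0.20 for its relative Cdk5r1. The brightest of them, Gsk3b, differed by -0.06 and Csnk1a1, a casein kinase 1 gene, by 0.02, or by 0.10 on the 4 arrays that fit the sex label. Csnk1e, another casein kinase 1 gene, differed by 0.18 without overlap. Among the 19 subunit genes of other serine/threonine phosphatases 0 passed (limma, 1 at an unadjusted p under 0.05, beside 9.48% of all genes). The PP2A scaffold gene Ppp2r1a differed by -0.06 and the PP2A regulatory genes Ppp2r5a, Ppp2r2b, Ppp2r3a and Ppp2r2c by 0.19, 0.21, -0.25 and -0.51.

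Downstream, the enzymes of glycogen synthesis and breakdown, among them long-known PP1 substrates, gave 0 of 11 genes past the threshold and 0 at an unadjusted p under 0.05 (limma), with a median of 0.00099. The largest differences were -0.24 for Phka2 and -0.19 for Gys1, the phosphorylase kinase and glycogen synthase genes, both without overlap, and 0.21 for Gys2, whose values lay below the array medians. Without the 2 arrays that go against the sex label Gys1 differed by -0.07. Phkb and Phka1, the brightest of the list, differed by 0.04 and 0.0010. Across all 6 lists 119 of 127 named genes were measured, of which 1 fell, 0 rose and 118 did not pass. The 1 that passed is 0.84% of them, beside 0.243% of all genes. At an unadjusted p under 0.05 stood 12 of them, or 10.1%, beside 9.48% of all genes (limma). In 19 of them, or 15.97%, the genotypes did not overlap, beside 15.1% of all genes.

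**Figure D3:**
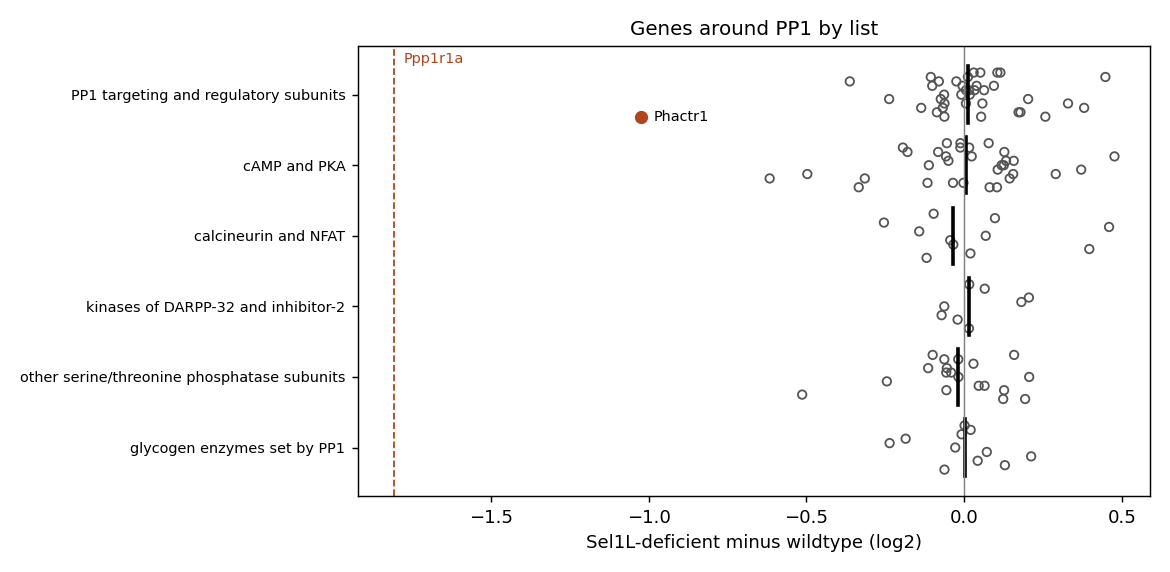
Sel1L-deficient minus wildtype log2 difference of each measured gene in the 6 lists around PP1, with list medians as black bars, genes past the threshold filled and the value of Ppp1r1a as a dashed line. Phactr1 at -1.02 is the one filled point, and the list medians lie between -0.03 and 0.02.

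The genes whose values over the 6 arrays followed Ppp1r1a most closely were Slc2a2 (Pearson r = 0.998), Atp6v1e1, Cinp, Ucn3 and Pcx (r = 0.995 each), of 11089 genes above the median level. Slc2a2 encodes the glucose transporter GLUT2, Ucn3 the β-cell peptide urocortin 3, Pcx the mitochondrial enzyme pyruvate carboxylase, Atp6v1e1 a subunit of the vacuolar proton pump and Cinp a protein of the DNA damage checkpoint. These r values describe 6 points that fall into 2 genotypes, so they rest largely on the difference between genotypes. The genes were also picked for this r on the same arrays, so the r of their deviations from each genotype's mean follows largely from the choice and is no separate check. That r with Ppp1r1a was 0.971 for Slc2a2, 0.967 for Pcx, 0.928 for Atp6v1e1, 0.926 for Cinp and 0.923 for Ucn3. The sizes differed, with -1.38 for Slc2a2 and -1.995 for Ucn3, both past the threshold (limma adjusted p = 0.0265 and 0.013), and -0.53, -0.47 and -0.31 for Pcx, Cinp and Atp6v1e1, which did not pass (limma adjusted p = 0.181, 0.181 and 0.349). The most opposite patterns were those of Gbp11 (r = -0.990), Prpf4b (r = -0.988) and Fbp1 (r = -0.987), with differences of 2.76, 0.37 and 0.82. Fbp1, the gluconeogenic enzyme fructose-1,6-bisphosphatase 1, lay just outside the threshold (limma adjusted p = 0.0509). Genes picked for their r with Ppp1r1a, itself chosen for its genotype difference, tend to differ between genotypes too. The p-values of the genes picked here are therefore a description and no separate support.

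**Figure D4:**
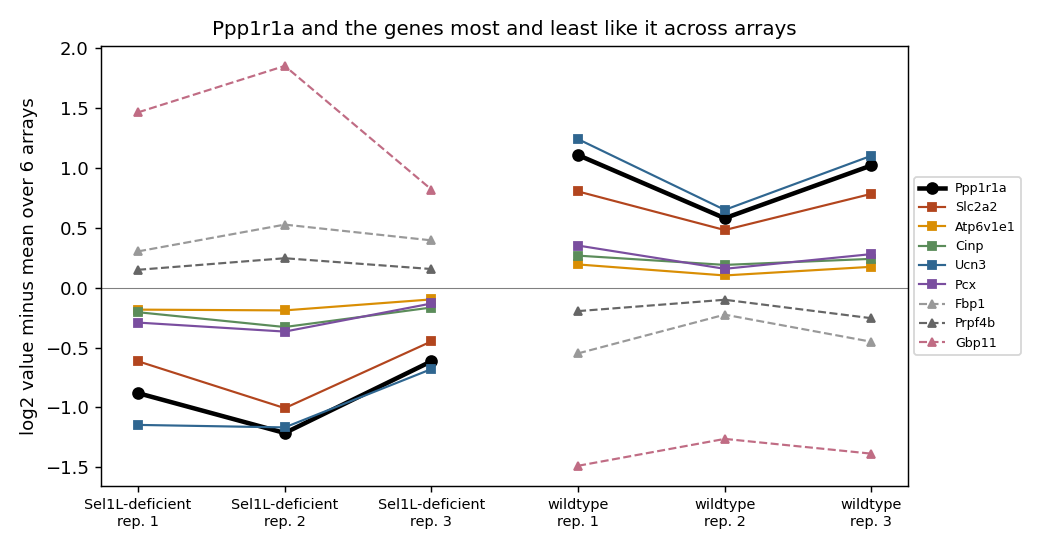
Log2 values on each array, less each gene's mean over the 6 arrays, for Ppp1r1a (black), the 5 genes most like it (squares) and the 3 most opposite (triangles). Ppp1r1a and Ucn3 run nearly together, Slc2a2 follows with a smaller difference, and wildtype replicate 2 and Sel1L-deficient replicate 2 are the lowest of their genotypes for Ppp1r1a and for Slc2a2.

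Markers of β cells were also lower, and in whole islets fewer cells of a type and less RNA per cell cannot be told apart. Of 9 measured β-cell markers 4 fell, 0 rose and 5 did not pass, while all 9 were lower without overlap, beside 0.153% of all genes that fell and 7.84% that were lower without overlap. The list was chosen with earlier results of these data known, and Mafa, Ucn3 and Slc2a2 are among the largest falls on these arrays. Its counts are therefore a description and no separate support. With 1 array left out 1 to 3 of the 9 fell, with every probe set tested on its own 1, and on the 4 arrays that fit the sex label 0. Their mean level ran over 8.90 to 9.08 on the Sel1L-deficient and 9.73 to 10.0 on the wildtype arrays, and the median difference was -0.66. Iapp and Slc30a8, the brightest of them, differed by -0.09 and -0.07, close to the top of the scale. Ins2, named here after its values were seen, had a mean of 10.9 over all arrays, beside 11.1 for Slc30a8. It differed by -0.50 ± 0.13 (SE) without overlap (limma adjusted p = 0.279). Mafa encodes a transcription factor that marks mature β cells and is named here after its values were seen. It stood at 6.42, 6.64 and 6.64 on the Sel1L-deficient arrays and at 8.66, 8.62 and 8.75 on the wildtype arrays, 4.33-fold lower (limma adjusted p = 0.000681). Within genotypes its r with Ppp1r1a was 0.145. The other β-cell markers not picked for their r varied widely in this value. It was 0.937 for Pdx1, 0.832 for G6pc2, 0.825 for Nkx6-1 and 0.589 for Slc30a8. For Iapp it was 0.117 and for Ins2 -0.361.

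No marker of another cell type passed the threshold. All 8 endothelial markers, Kdr and Emcn the brightest, had higher means in Sel1L-deficient islets, 6 of them without overlap and 0 past the threshold (limma, 6 at an unadjusted p under 0.05). Over all genes 7.22% were higher without overlap and 9.48% had an unadjusted p under 0.05. Their mean level was 7.15 to 7.34 on the Sel1L-deficient and 6.59 to 7.003 on the wildtype arrays. All 8 mesenchymal markers, such as Sparc and Rgs5, were higher on average, 2 of them without overlap and 0 past the threshold (3 at an unadjusted p under 0.05), with mean levels of 5.49 to 5.92 on the Sel1L-deficient and 4.82 to 5.59 on the wildtype arrays. Among these endothelial and mesenchymal markers, 1 mesenchymal marker lay below the median level of all genes. That dim marker was 1 of the 2 without overlap and 1 of the 3 at an unadjusted p under 0.05 (limma). Acinar markers followed replicate 3 of both genotypes, with a mean level of 5.90 to 7.64 on the Sel1L-deficient and 6.31 to 8.07 on the wildtype arrays over 4 measured genes, among them Ctrb1 and Cpa1. All 4 were lower on average in Sel1L-deficient islets, with a median difference of -0.59, and all 4 overlapped between genotypes. The 4 α-cell markers, led by Gcg and Ttr, had a median difference of 0.12 with 0 past the threshold and 0 at an unadjusted p under 0.05 (limma). The δ- and PP-cell markers, led by Sst and Pyy, had a median of 0.14, those of leukocytes, led by Cd68 and Lyz2, -0.09, those of ducts, led by Krt7 and Sox9, -0.04, and those of Schwann cells, Sox10 and S100b, 0.12, again with 0 past the threshold and 0 at an unadjusted p under 0.05. Below the median level of all genes lay 3 of 6 leukocyte, 2 of 4 duct, 2 of 2 Schwann and 1 of 4 acinar markers. This limits what these lists can show. The part of any cell type in the Ppp1r1a and Phactr1 values was not tested.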

How the data were processed

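RMA, named in the submitters' processing notes, is the authors' step from probe signals to the deposited table of 1 value per probe set and sample. Its version, any filters and the array build are not given in the sources used here. Deposited values were read as log2, because they run over 0.526 to 13.0 with near-equal quartiles on all 6 arrays. RMA can compress large ratios. Symbols came from the platform annotation (1 symbol for 23521 of 41345 probe sets, several for 1814, none for 16010), and 23328 of the single-symbol probe sets matched a RefSeq table of GRCm38.p6 by Entrez identifier with 0 symbols changed. Each gene was taken at its probe set with the highest mean. Sel1L-deficient minus wildtype differences were fitted with limma 3.58.1 in R 4.3.3 (lmFit, eBayes, two-sided) over all 22180 genes, with Benjamini-Hochberg adjustment and a threshold of 0.05. The fit was also run on simulated data, and the outcome is not given here. The number of arrays limits the precision.

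The members and the 6 pathway and 9 marker lists were chosen with earlier results of these data known. Genes named were the members, Sel1l, each pathway list's called genes, its 3 largest differences and its 2 brightest genes, each marker list's 2 brightest, the 5 genes most and 3 least correlated with Ppp1r1a above the median level, and the sex-linked transcripts. Ppp1r15a, Ppp1r15b, Mafa and the shared probe sets were named after their values were seen. Alternatives were an array left out, the replicate number as a block, the sex-linked transcripts, other gene summaries, a filter on dim genes, repeated quantile normalization and another prior.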

Additional observations from a re-analysis of the deposited data

How the results depend on the processing

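Ppp1r1a was lower in Sel1L-deficient islets under all 14 alternatives, by -1.97 to -1.65 on the log2 scale. It lay past the threshold that chose it in 8 of them, while 0 of the 5 other members passed under any of them. For Ppp1r1a this is a description, since the gene was chosen for its fall on these arrays. The replicate block, the sex-linked covariate, the gene summaries, the filter and the prior could not move its difference. They use the same probe set values, and the block and the covariate are balanced over the genotypes. With 1 array left out the count of genes past the threshold was 4 to 29 instead of 54 and that of the pathway lists 0 to 1 instead of 1. The 4 arrays that fit the sex label gave 1 gene and 0 of the pathway lists, every probe set tested on its own 3 and 0, and the trended, robust prior 133 genes. With the mean of its probe sets Ppp1cb differed by 0.17 instead of 0.03. The small differences of 4 members changed sign. With 1 array left out Ppp1cc lay between -0.067 and 0.13, Ppp1r1c between -0.18 and 0.057 and Ppp1r2 between -0.15 and 0.014. On the 4 arrays that fit the sex label Ppp1cb differed by -0.0066, Ppp1cc by -0.060, Ppp1r1c by 0.018 and Ppp1r2 by 0.020. Some of these fits had fewer arrays or more features, and the cause of the changes was not tested. With the filter on dim genes Ppp1r1c was not tested. Same-numbered arrays had correlated deviations of 0.0463, 0.0351 and 0.0875 over all probe sets, each the highest for its array, which is a hint from the data and not a pairing in the design. With the replicate block 36 genes passed, Phactr1 among them (limma adjusted p = 0.0285), and Ppp1r1a differed by -1.81 ± 0.12 (SE). No detection call limits what dim probe sets such as that of Ppp1r1c can show.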
